A study of Mus musculus with 9 samples.

Results

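The major histocompatibility complex (MHC) region of the mouse, called H2, was described in RNA of cortical neuronal nuclei. Members were all genes on chromosome 17 with a start at or above base 33900000 and an end at or below base 36500000 of GRCm38, at least 50 counts summed over the 9 libraries, and a symbol that does not begin with Rps, Rpl or Hsp. This gave 84 members of 262 annotated genes in the window and 55401 in the whole annotation. Members were thus selected on their summed count in these libraries, so their being detected is not a result, and their levels are given as a description. Of the 262 genes, 77 had no count in any library, 100 had 1 to 49 counts, and Rps18 was left out by its symbol. Members just inside the limit were Gm19412 (52 counts), H2-Q2 (53), Ier3 (54) and H2-T24 (55), and genes just outside it were Gm20522 and Sfta2 (49 each), Nrm (48) and Msh5 (47).

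Nuclei carrying NeuN, a nuclear protein of neurons, had been sorted out of cortical tissue from animals 7 to 9 months old, and each of 3 groups had 3 libraries. The first group was Tau P301S transgenic mice, which carry a mutant form of the microtubule-associated protein tau, injected intraperitoneally with the Cdk5i peptide on alternate days at 20 mg/kg body weight. The second was Tau P301S mice that received a scrambled peptide on the same schedule. The third was wild-type (WT) mice with no treatment, so the transgene and the injections cannot be told apart in any comparison with WT. Cdk5i is named for inhibition of Cdk5, a kinase abundant in neurons. The labels used here name neither the promoter of the transgene nor the background strain, and they do not say that the libraries came from separate animals, so p-values measure the spread between libraries only.

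Class I genes of the MHC encode heavy chains that pair with beta-2 microglobulin and display peptides on the cell surface. The peptides are moved into the endoplasmic reticulum by the transporter of Tap1 and Tap2 and loaded with the help of tapasin, the product of Tapbp. Class II genes serve antigen-presenting leukocytes, and the class III stretch between them holds complement genes, cytokine genes and many genes with no role in immunity. Most neurons show little class I protein, and in neurons of rodents class I genes have been tied to synapse refinement. Classical class I genes are among the most variable genes between mouse strains.

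Short stretches of the promoters are printed for the class I members H2-D1, H2-Q2 and H2-T23 and for Tap1. Class I and antigen-processing genes are known to be driven through shared elements. H2-T22, whose window also held matches, is not printed. Promoter windows from RefSeq (GRCm38.p6) held the 250 bases before a gene's start, and 63 of the 84 members matched, with 96 windows. In these lines capitals mark the NF-kappaB consensus, an element of class I enhancers, TTTCNNTTC, the core of interferon-stimulated elements, and CCAAT, each searched on both strands. ATTGG is CCAAT on the opposite strand. Each stretch is 30 bases long and starts at the first marked letter. The 2 stretches of H2-D1 and the stretch of H2-T23 lie in annotated untranslated sequence of their own gene, that of H2-Q2 overlaps such sequence, and that of Tap1 lies in untranslated sequence of its neighbour Psmb9 on the other strand.
H2-D1, 171 bases before the start, chr17:35262923-35262952, plus strand: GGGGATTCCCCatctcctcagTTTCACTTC
H2-D1, 76 bases before the start, chr17:35263018-35263047, plus strand: ATTGGgtggcgagattccaggagCCAATca
H2-Q2, 81 bases before the start, chr17:35342226-35342255, plus strand: ATTGGgtggcaggatcctgggaaaccaacc
H2-T23, 52 bases before the start, chr17:36032724-36032753, minus strand: CCAATcagcgacgcagaggtctcaaagtac
Tap1, 222 bases before the start, chr17:34187334-34187363, plus strand: CCAATcagcggctgcgcgcggtgcaggcaa

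The NF-kappaB consensus was found in 2382 of 32851 windows of all genes (7.25%) and in 18 of the members' 96 windows (18.8%), of which several belong to 1 gene. It was in the windows of H2-D1 and H2-T22 among class I members, and also in those of Ring1, Rxrb, Neu1, Ddr1 and Notch4. TTTCNNTTC was in 3.12% of the members' windows, those of Atp6v1g2, H2-D1 and Prr3, against 6.31% of all windows. CCAAT was in 28.1% of the members' windows and 33.8% of all windows, and in each of the 4 class I windows, those of H2-D1, H2-Q2, H2-T22 and H2-T23. These matches are letters in a window and were not tested for binding.

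Library totals ran from 21584712 to 26715938 counts, and the members together took 0.0744% to 0.0974% of them. Neuronal markers were high in every library, with the sum of 8 genes between 6113 and 7296 CPM, the count scaled to library size. The sum of 14 microglial markers was 57.2, 67.2 and 134 CPM in the Cdk5i libraries, 79.2, 68.2 and 81.2 CPM in the scrambled libraries and 75.6, 52.8 and 159 CPM in WT, with Itgam at 0. Leukocyte markers summed to 0.198 to 1.38 CPM and endothelial markers to 2.16 to 3.96 CPM. Astrocyte markers summed to 602 to 888 CPM, oligodendrocyte markers to 69.5 to 118 CPM, oligodendrocyte precursor markers to 12.4 to 24.5 CPM and pericyte markers to 1.65 to 2.34 CPM. Scrambled replicates 2 and 3 stood apart from the other 7 libraries in H2-D1, with 0 and 1 counts, and values that shift most when both are left out are also given without them.

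Most members were the non-immune genes of the region. Of 23 class I genes in the window 7 were members, of 12 class II genes 1, of 5 antigen-processing genes 3, of 4 complement genes 3, and of 22 cytokine and leukocyte genes 3. The other 67 members were 58 further genes and 9 predicted or non-coding ones. By biotype 74 members were protein coding, and 46 lay on the plus strand and 38 on the minus strand. Along the chromosome, 13 members lay at the K end before Brd2, 5 in the class II segment from Brd2, 37 in the class III segment from Notch4, 2 in the D and Q segment from H2-D1, and 27 from Pou5f1 to the end, the segment that holds the T genes.

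Class II genes were nearly silent apart from H2-DMa. H2-Aa and H2-Ab1, the chains of the classical I-A molecule, had 1 count each over all 9 libraries, and H2-Eb1, a chain of I-E, had 27. H2-DMb1 and H2-DMb2, the partners of H2-DMa, had 16 and 42 counts. Cd74, the invariant chain that class II molecules need, lies outside the region and averaged 0.0255, 0.0567 and 0.0312 CPM in the Cdk5i, scrambled and WT libraries. Among cytokine genes Tnf and Ltb had 0 counts, and Lta had 7. H2-K1, the classical K heavy chain, was below the limit with 38 counts, 11, 5 and 5 in the Cdk5i libraries, 6, 3 and 1 in the scrambled libraries and 2, 3 and 2 in WT. Psmb8 and Psmb9, subunits of the immunoproteasome, had 15 and 3 counts, and Cfb, a complement protease, had 0. Cfb is overlapped over 99.4% of its length by another gene model on the same strand, and read pairs that overlap 2 genes are left out of the counts, so its 0 need not be silence.

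Levels were compared between genes per length, as CPM per kilobase (kb) of gene, introns included. The median member stood at 0.559 CPM per kb, against 0.498 over the 17012 genes of the annotation with at least 50 counts, and members were shorter, with a median length of 9113 bases against 25087. The level per kb ran from 0.0107 for C2 to 22.3 for 1110038B12Rik, a non-coding host gene of small nucleolar RNAs. Next came Prrt1 (5.76), which encodes a protein bound to AMPA receptors, Ddx39b (5.51), an RNA helicase of mRNA export, Prrc2a (5.08), an RNA-binding protein, and Gm24389 (2.91), a small nuclear RNA gene of 107 bases. Tubb5, a beta-tubulin, had 2.85 CPM per kb, Brd2, a bromodomain protein, 2.83, Bag6, a chaperone, 2.77, Neu1, the lysosomal sialidase, 2.62, and Atp6v1g2, a subunit of the vesicular proton pump, 2.59. Immune members stood lower. The median was 0.247 CPM per kb for class I, 0.112 for antigen processing, 0.0271 for complement and 0.235 for cytokine and leukocyte genes, against 0.957 for the 58 further genes, and H2-DMa stood at 0.484. Transcripts of C4b, C4a, C2 and H2-T22 share 41.3%, 36.8%, 39.6% and 42.6% of their 40-base stretches with other genes, against a median of 0.374% over all members. For Tap1, Tap2, Aif1 and Lst1 the shares were 0.624%, 0.919%, 0% and 0%. Reads of shared stretches may be dropped, and their part in these levels was not tested.

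**Figure D1:**
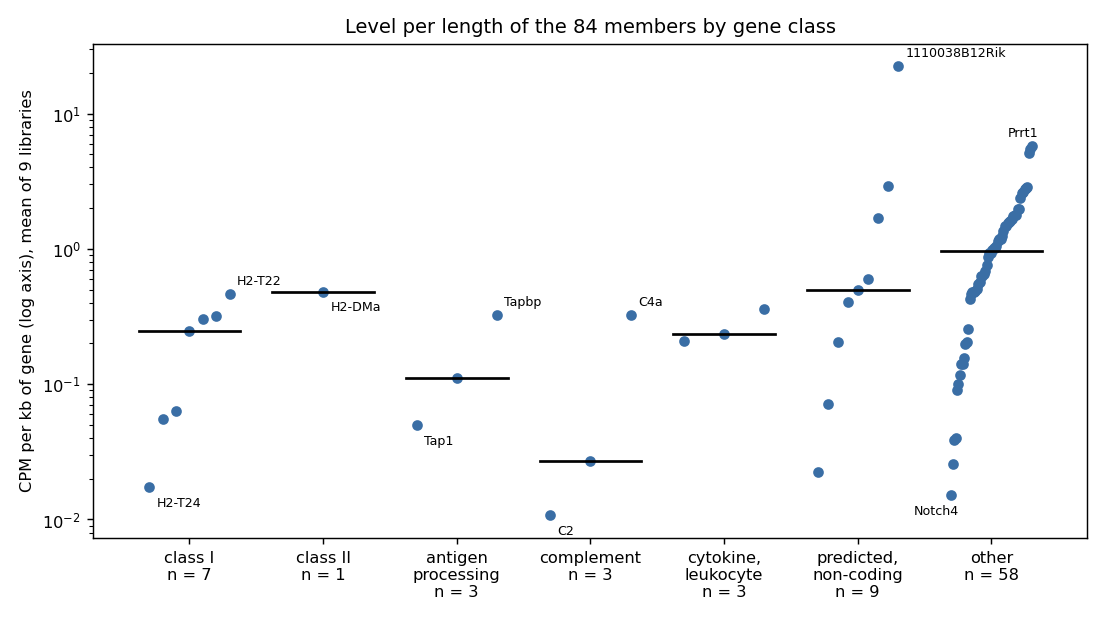
Level of each of the 84 members per gene length (CPM per kb, mean of 9 libraries, log axis) by gene class. Points are genes and bars are class medians, which lie at 0.0271 for complement, 0.112 for antigen processing, 0.247 for class I and 0.957 for the 58 further genes.

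In the further genes the libraries were close to each other. The summed level of the 58 genes was 701 ± 33.1 CPM in Cdk5i libraries, 723 ± 41.0 CPM in scrambled libraries and 670 ± 11.9 CPM in WT (SD, n = 3 each). The 7 class I members summed to 8.88, 7.43 and 5.50 CPM in the Cdk5i libraries, 7.06, 4.74 and 4.20 CPM in the scrambled libraries and 8.01, 6.97 and 8.94 CPM in WT. Scrambled replicates 2 and 3 had the lowest class I sums of the 9 libraries, and scrambled replicate 1 lay within the WT range. The 3 antigen-processing members summed to 5.30 ± 0.452 CPM in Cdk5i libraries, 7.01 ± 0.569 CPM in scrambled libraries and 6.37 ± 0.146 CPM in WT, with all Cdk5i libraries below all others. Fewer nuclei with a transcript and less RNA per nucleus cannot be told apart in such bulk libraries.

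H2-D1, the classical D heavy chain (chromosome 17, 35262730 to 35267499, plus strand), was the most variable of the tested members. It had 67, 58 and 28 counts in the Cdk5i libraries, 31, 0 and 1 counts in the scrambled libraries and 37, 44 and 51 counts in WT. In CPM these are 2.99, 2.21 and 1.07 with Cdk5i, 1.20, 0 and 0.0397 with scrambled peptide, and 1.75, 2.06 and 2.32 in WT. All scrambled libraries lay below all WT libraries, and scrambled replicate 1 lay within the Cdk5i range. A count of 0 in scrambled replicate 2 allows up to 3 counts, or 0.132 CPM. The biological coefficient of variation of H2-D1 was 0.959, at the 99.9th percentile of the 16046 genes tested.

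The fitted log2 fold change of H2-D1 was -2.25 for scrambled peptide against WT (95% interval -4.45 to -0.04) and 2.27 for Cdk5i against scrambled peptide (0.09 to 4.45), comparisons that share the scrambled libraries. Neither passed the edgeR quasi-likelihood test after Benjamini-Hochberg adjustment (adjusted p = 0.488 and 0.922). Cdk5i against WT gave 0.02 (adjusted p = 0.995, edgeR). With scrambled replicates 2 and 3 left out, the log2 values were -0.77 and 0.80 (edgeR adjusted p = 0.918 and 0.999), 1 scrambled library being assumed to vary like the rest. With scrambled replicate 1 left out, the group held 1 count of H2-D1 in all, and the edgeR adjusted p-values were 0.0191 against WT, 0.0171 for Cdk5i against scrambled peptide and 0.0455 for both P301S groups against WT. The call on H2-D1 thus turned on which scrambled libraries were kept.

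Other class I members were low, and 3 of the 7 did not pass the filter on low counts. H2-Q2, a gene of the Q series, had 4, 11 and 6 counts in the Cdk5i libraries, 6, 0 and 0 in the scrambled libraries and 5, 5 and 16 in WT. H2-K2, annotated as a transcribed pseudogene, had 11, 8 and 9 counts with Cdk5i, 6, 1 and 1 with scrambled peptide and 8, 3 and 9 in WT. Scrambled replicates 2 and 3 were the lowest libraries in H2-D1, H2-Q2 and H2-K2 alike, while scrambled replicate 1 lay within the range of the Cdk5i or WT libraries. Transcripts of H2-D1 share 19.0% of their 40-base stretches, the length of a read, with those of other genes, most of all H2-K1, so reads of these genes may be exchanged or dropped. Reads were counted on the GRCm38 reference, and the H2 haplotype of each mouse is not given, so low counts of a variable class I gene and reads of another haplotype that do not map cannot be told apart here. H2-T24 had 5, 8 and 2 counts with Cdk5i, 7, 7 and 10 with scrambled peptide and 4, 6 and 6 in WT.

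The T genes H2-T22 and H2-T23 were seen in every library. H2-T23, the Qa-1 heavy chain, which presents leader peptides of other class I molecules, had 31, 33 and 12 counts in the Cdk5i libraries, 18, 11 and 16 in the scrambled libraries and 26, 21 and 29 in WT. It averaged 1.03 ± 0.502, 0.604 ± 0.109 and 1.18 ± 0.174 CPM in these groups (SD, n = 3 each). All scrambled libraries lay below all WT libraries, at a log2 fold change of -0.95 ± 0.38 (SE; edgeR unadjusted p = 0.0278, adjusted p = 0.433), and Cdk5i replicate 3 lay lower still. H2-T22, a ligand of gamma delta T cells, had 59, 69 and 60 counts with Cdk5i, 77, 56 and 43 with scrambled peptide and 68, 55 and 68 in WT, with overlap in every comparison, and its transcripts share 39.1% of their 40-base stretches with those of H2-T10. H2-Bl, annotated as a polymorphic pseudogene, went the other way, with 22, 8 and 27 counts with Cdk5i, 38, 33 and 35 with scrambled peptide and 21, 15 and 18 in WT. Its scrambled libraries lay above all others, with a log2 fold change of -0.90 ± 0.36 for Cdk5i against scrambled peptide (edgeR adjusted p = 0.893) and 0.77 ± 0.36 for scrambled peptide against WT (adjusted p = 0.499).

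A930015D03Rik (35994453 to 36038435, plus strand) is an antisense RNA that spans H2-T24 and H2-T23 and part of H2-T22, which lie on the minus strand, and the counts are stranded. Its level was 35.0, 34.1 and 27.5 CPM in the Cdk5i libraries, 24.8, 16.6 and 18.0 CPM in the scrambled libraries and 25.1, 23.7 and 31.4 CPM in WT. The Cdk5i libraries lay above all scrambled ones, and the scrambled and WT libraries overlapped. Cdk5i against scrambled peptide gave a log2 fold change of 0.70 ± 0.17 (edgeR unadjusted p = 0.00198, adjusted p = 0.613), and scrambled peptide against WT gave -0.43 ± 0.17 (adjusted p = 0.434). DESeq2 called A930015D03Rik for Cdk5i against scrambled peptide (adjusted p = 0.0140). With scrambled replicates 2 and 3 left out, its log2 fold change in that comparison was 0.38, and against WT it was -0.11 for the remaining scrambled library.

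**Figure D2:**
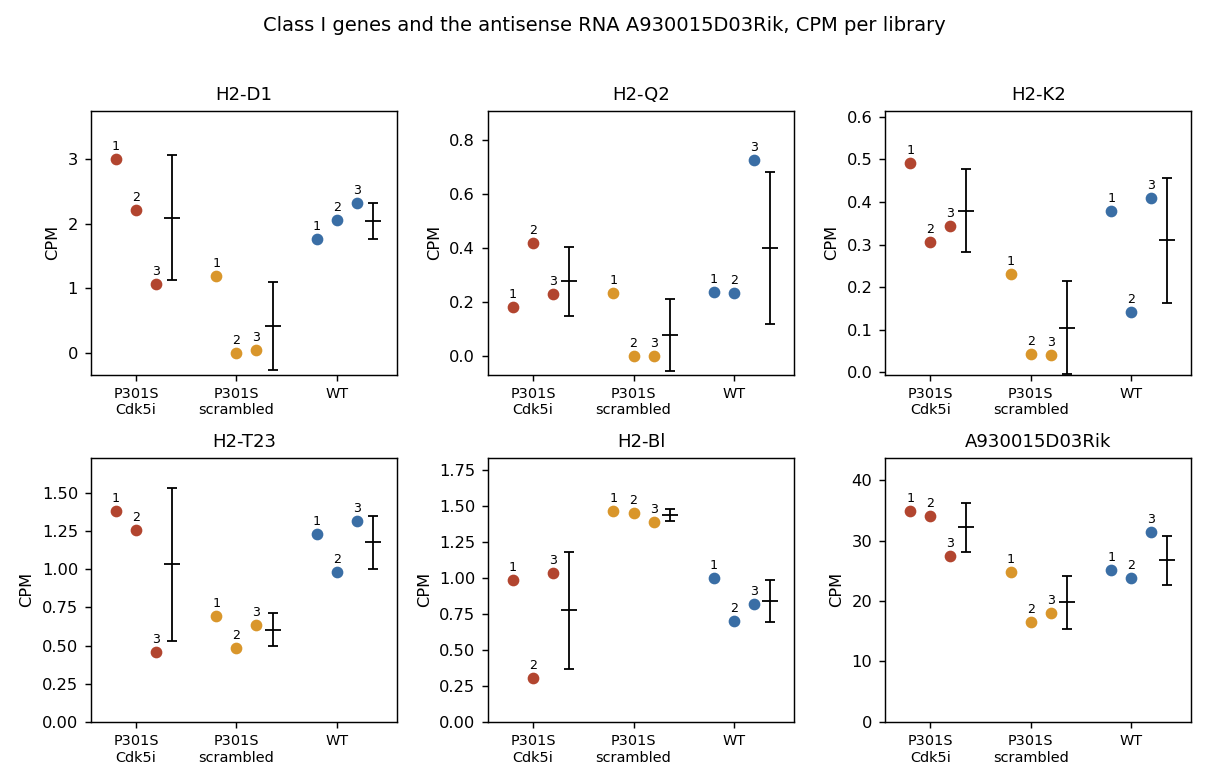
CPM per library of 5 class I genes and the antisense RNA A930015D03Rik in P301S Cdk5i, P301S scrambled and WT libraries. Numbered points are replicates, and the bars beside them are the mean and SD (n = 3). Scrambled replicates 2 and 3 lie at 0 and 0.0397 CPM in H2-D1 and are the lowest in H2-Q2 and H2-K2, while all scrambled libraries are highest in H2-Bl.

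Tap1 and Tap2, which pair to form the peptide transporter, had their lowest levels with the Cdk5i peptide. Tap1 had 8, 8 and 4 counts in the Cdk5i libraries, 19, 15 and 15 in the scrambled libraries and 11, 12 and 10 in WT. It averaged 0.272 ± 0.106, 0.662 ± 0.0689 and 0.512 ± 0.0544 CPM in these groups (SD, n = 3 each). Every Cdk5i library lay below every other library. Tap2 had 1.16, 0.876 and 0.917 CPM in the Cdk5i libraries, 1.89, 1.76 and 1.47 CPM in the scrambled libraries and 1.52, 1.69 and 1.59 CPM in WT. Again the Cdk5i libraries were all below the others, while scrambled and WT libraries overlapped.

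Cdk5i against scrambled peptide gave log2 fold changes of -1.29 ± 0.39 for Tap1 (SE; edgeR unadjusted p = 0.00549, adjusted p = 0.768) and -0.80 ± 0.23 for Tap2 (unadjusted p = 0.00384, adjusted p = 0.671). Cdk5i against WT, which shares the Cdk5i libraries, gave -0.92 ± 0.41 for Tap1 (edgeR adjusted p = 0.435) and -0.70 ± 0.23 for Tap2 (adjusted p = 0.315). None of the 4 values passed the adjusted threshold. Tapbp, which encodes tapasin, had 3.35, 4.08 and 4.70 CPM in the Cdk5i libraries, 3.74, 5.0 and 5.20 CPM in the scrambled libraries and 4.22, 4.07 and 4.49 CPM in WT, and its groups overlapped throughout. Of its length 25.6% is overlapped by Zbtb22 on the same strand. B2m, the light chain of class I molecules, lies outside the region and averaged 1.87 ± 0.155, 2.10 ± 0.454 and 2.07 ± 0.444 CPM in the Cdk5i, scrambled and WT libraries.

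Among complement members, C4a was the highest, and C2 and C4b were near the detection limit. C4a, whose product in mice is known as sex-limited protein, had 2.77, 3.12 and 4.74 CPM in the Cdk5i libraries, 4.67, 7.20 and 6.66 CPM in the scrambled libraries and 5.03, 5.38 and 2.68 CPM in WT. Cdk5i replicate 3 lay just above scrambled replicate 1, so the groups overlapped, and the log2 fold change of Cdk5i against scrambled peptide was -0.79 ± 0.28 (edgeR adjusted p = 0.871), or -0.39 with scrambled replicates 2 and 3 left out. C4b, the complement component C4 itself, had 5, 5 and 16 counts with Cdk5i, 12, 21 and 12 with scrambled peptide and 11, 6 and 2 in WT. C4a and C4b are close copies, and 41.3% of the 40-base stretches of C4b transcripts also occur in C4a, so reads of the pair may not be told apart. C2, the partner protease of C4, had 10, 8 and 12 counts with Cdk5i, 11, 9 and 11 with scrambled peptide and 5, 6 and 10 in WT, and 54.5% of it is overlapped by Gm20547.

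Aif1, which encodes the microglial protein IBA1, had 0.536, 0.495 and 1.18 CPM in the Cdk5i libraries, 1.16, 2.28 and 2.30 CPM in the scrambled libraries and 1.19, 1.17 and 0.409 CPM in WT. Scrambled replicates 2 and 3 were the highest, and the groups overlapped in each comparison. Lst1, a leukocyte gene, had 0.625, 0.229 and 0.496 CPM in Cdk5i libraries, 0.694, 1.36 and 1.27 CPM in scrambled libraries and 0.285, 0.843 and 0.454 CPM in WT. Its Cdk5i libraries lay below all scrambled ones. Cdk5i against scrambled peptide gave log2 fold changes of -1.35 ± 0.43 for Aif1 and -1.30 ± 0.44 for Lst1 (edgeR adjusted p = 0.768 and 0.819), and scrambled peptide against WT gave 1.05 ± 0.43 and 1.06 ± 0.44 (adjusted p = 0.446 and 0.448). With scrambled replicates 2 and 3 left out, Cdk5i against scrambled peptide gave -0.63 for both genes (edgeR adjusted p = 0.999 each), and scrambled peptide against WT gave 0.33 for Aif1 and 0.39 for Lst1 (adjusted p = 0.974 and 0.968). Of the 14 microglial markers 5 were tested, of which 4 had positive log2 fold changes for scrambled peptide against WT (median 0.16) and 2 had negative ones for Cdk5i against scrambled peptide (median 0.04), with 0 called by edgeR. P2ry12, a purine receptor of microglia, averaged 0.740 ± 0.282, 0.916 ± 0.341 and 0.821 ± 0.266 CPM in the Cdk5i, scrambled and WT libraries. The microglial sum was highest in WT replicate 3, where Aif1 was lowest, and Cx3cr1, the fractalkine receptor of microglia, averaged 1.5 ± 0.283, 1.53 ± 0.267 and 1.27 ± 0.117 CPM in the Cdk5i, scrambled and WT libraries. The part of other cells in these values was not tested. Nfkbil1, the third of this class, averaged 5.46 ± 0.446 with Cdk5i, 5.77 ± 0.310 with scrambled peptide and 5.59 ± 0.716 CPM in WT.

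Tnxb had the lowest p of any member. It encodes tenascin XB, a glycoprotein of the extracellular matrix, and spans 34660457 to 34719815 on the plus strand in the class III segment. Its level was 4.06, 4.15 and 3.93 CPM in the Cdk5i libraries, 8.10, 6.67 and 6.94 CPM in the scrambled libraries and 5.74, 4.03 and 4.99 CPM in WT. The scrambled libraries lay above all the others. Cdk5i against scrambled peptide gave a log2 fold change of -0.84 ± 0.15 (95% interval -1.16 to -0.52; edgeR unadjusted p = 7.99e-05, adjusted p = 0.128), and scrambled peptide against WT gave 0.56 ± 0.15 (unadjusted p = 0.00234, adjusted p = 0.276). DESeq2 called Tnxb for Cdk5i against scrambled peptide (adjusted p = 0.0110). Over all the alternatives run, the log2 fold change of this comparison stayed between -0.99 and -0.74. Its transcripts share 7.90% of their 40-base stretches with Tnxa.

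**Figure D3:**
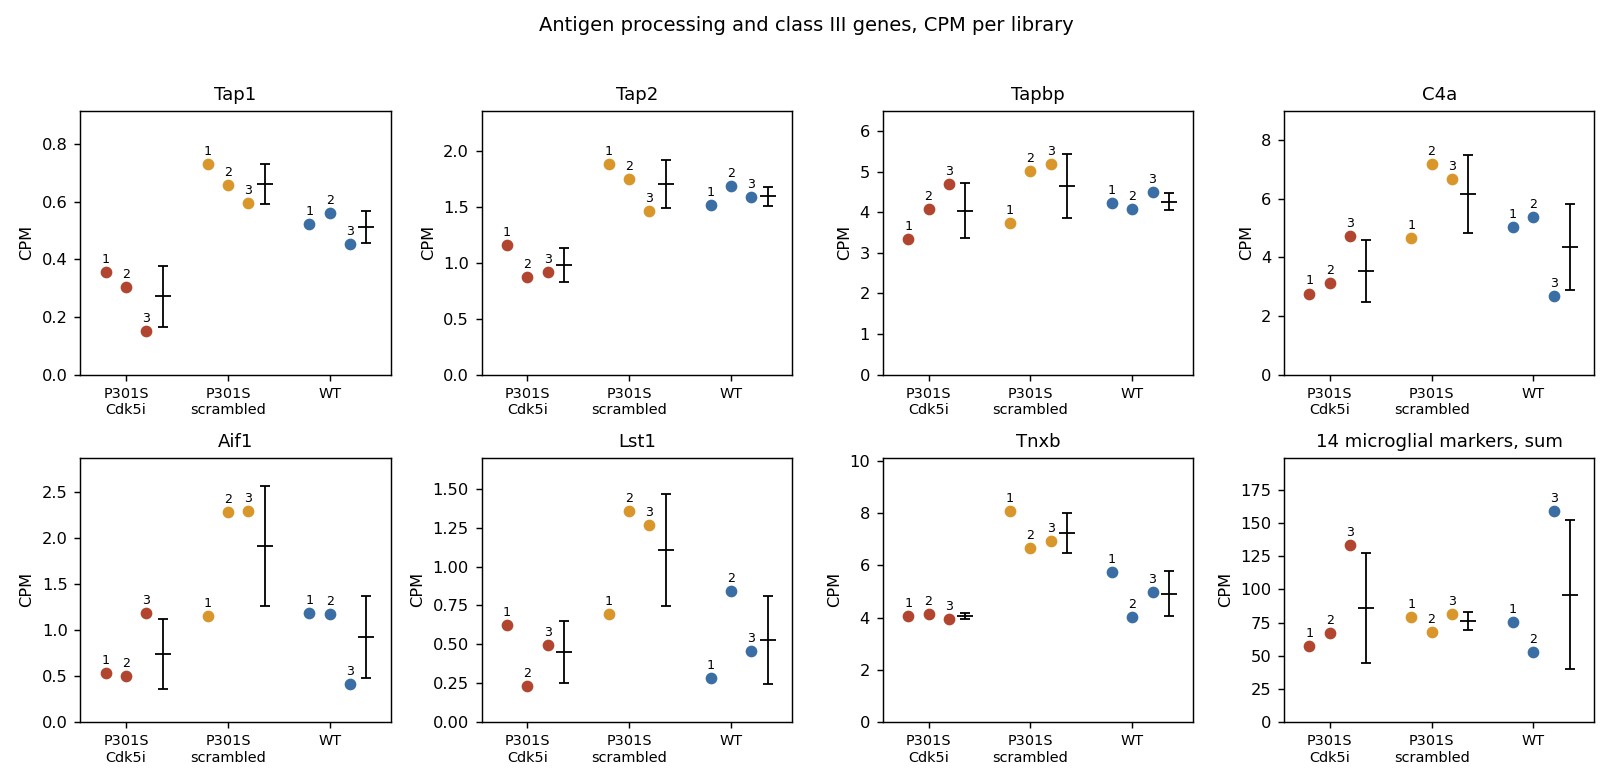
CPM per library of the antigen-processing genes Tap1, Tap2 and Tapbp, of C4a, Aif1, Lst1 and Tnxb, and of the sum of 14 microglial markers, in P301S Cdk5i, P301S scrambled and WT libraries. Numbered points are replicates, and the bars beside them are the mean and SD (n = 3). The Cdk5i libraries are lowest in Tap1 and Tap2, the scrambled libraries are highest in Tnxb, and the microglial sum is highest in WT replicate 3 at 159 CPM.

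For scrambled peptide against WT, the comparison of transgenic mice given the scrambled peptide with untreated WT, 0 of the 77 tested members passed an adjusted p of 0.05 in the edgeR quasi-likelihood test, against 0.081% of the 16046 genes. At an unadjusted p under 0.05 there were 16 members (20.8%), against 10.1% of all genes, with 11 higher (against 4.86%) and 5 lower (against 5.2%). DESeq2, which called 0.448% of its genes, called 0 of the 78 members it gave an adjusted p, and limma-voom called 0. With no filter on low counts 5 members passed, Brd2, BC051142, Gm24389, Stk19 and A930015D03Rik, against 0.982% of all genes. Groups did not overlap for 22 members (28.6%), against 16.3% of all genes. Of these, 17 were higher with scrambled peptide (22.1%, against 8.26% of all genes) and 5 were lower (6.49%, against 8.03%). The log2 fold change was positive for 51 of 77 members (66.2%, against 51.7% of all genes), with a median of 0.125, against 0.008 over all genes. With scrambled replicates 2 and 3 left out, 6 of 82 members had an unadjusted p under 0.05 (7.32%, against 5.91% of all genes), and 51 of 82 had positive values (62.2%, against 49.7%). Oligodendrocyte markers moved with this comparison, with 7 of 8 tested positive (median 0.31) and 2 at an unadjusted p under 0.05, Mobp, a myelin protein gene, at 0.90 and Cldn11, a tight junction gene of myelin, at 1.28 (edgeR adjusted p = 0.307 and 0.380). Their part in the members' values was not tested.

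Along the region these values were not even. All 5 members of the class II segment had positive log2 fold changes for scrambled peptide against WT, with a median of 0.31, as had 29 of the 35 tested members of class III, with a median of 0.15. From Pou5f1 to the end 10 of 25 were positive, with a median of -0.11, and at the K end 7 of 11, with a median of 0.12. The lowest p was that of BC051142, a gene of the class II segment, with 4.96, 6.40 and 6.72 CPM in the Cdk5i libraries, 7.98, 7.68 and 7.46 CPM in the scrambled libraries and 4.84, 5.94 and 4.36 CPM in WT. All its scrambled libraries lay above the rest, and its log2 fold change of scrambled peptide against WT was 0.61 ± 0.15 (edgeR adjusted p = 0.244).

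Brd2, a bromodomain reader of acetylated histones, had 24.7, 29.5 and 32.8 CPM in the Cdk5i libraries, 30.8, 35.7 and 35.0 CPM in the scrambled libraries and 28.0, 26.4 and 27.4 CPM in WT. Its scrambled libraries were all above WT, and the Cdk5i libraries spread across both (log2 fold change 0.31 ± 0.10 for scrambled peptide against WT, edgeR adjusted p = 0.323). Stk19 and Vps52, a subunit of a tethering complex of the Golgi, lay likewise above WT without overlap, by 0.43 ± 0.13 and 0.31 ± 0.10 on the log2 scale (edgeR adjusted p = 0.317 and 0.356). The log2 values were 0.17 for Brd2, 0.26 for Stk19 and 0.16 for Vps52 with scrambled replicates 2 and 3 left out. On the lower side stood Ring1, a ubiquitin ligase of the Polycomb complex PRC1, with 7.63, 9.22 and 7.33 CPM in the Cdk5i libraries, 5.90, 4.83 and 5.43 CPM in the scrambled libraries and 7.40, 6.37 and 7.72 CPM in WT. Every scrambled library lay below every other library for Ring1. Its log2 fold change was -0.41 ± 0.14 for scrambled peptide against WT and 0.58 ± 0.14 for Cdk5i against scrambled peptide (edgeR adjusted p = 0.354 and 0.491). Slc39a7, a zinc transporter, was lower without overlap at -1.11 ± 0.45 (edgeR adjusted p = 0.432), but 97.0% of it is overlapped by the gene model Gm20427 and it averaged 0.303 ± 0.182 CPM in scrambled libraries and 0.653 ± 0.0936 CPM in WT.

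For Cdk5i against scrambled peptide, the comparison of the peptides in transgenic mice, 0 of 77 members passed the adjusted edgeR test, against 0.0125% of all genes. DESeq2 called 2 of 84 members, Tnxb and A930015D03Rik, against 0.128% of its genes, limma-voom called 0, and with no filter on low counts 6 members passed, Ring1, Tnxb, Gm24389, C4a, Aif1 and A930015D03Rik, against 0.491% of all genes. At an unadjusted p under 0.05 there were 15 members (19.5%, against 5.33% of all genes), of which 11 were lower with Cdk5i (14.3%, against 2.46%) and 4 higher (5.19%, against 2.87%). Groups did not overlap for 13 members (16.9%, against 10.3% of all genes), 10 lower (against 5.38%) and 3 higher (against 4.95%). The log2 fold change was positive for 32 of 77 members (41.6%, against 47.2% of all genes), with a median of -0.03, against -0.01. With scrambled replicates 2 and 3 left out, 5 of 82 members had an unadjusted p under 0.05 (6.1%, against 4.72% of all genes). Of the 8 tested oligodendrocyte markers 5 were negative in this comparison (median -0.21), with 0 at an unadjusted p under 0.05. In the class II segment all 5 were negative, with a median of -0.35, and 4 of them, Brd2, Tap1, Tap2 and BC051142, had an unadjusted p under 0.05. This comparison and the one before share the scrambled libraries, so opposite signs in them are not independent of each other.

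Higher with Cdk5i than with scrambled peptide, beside Ring1, A930015D03Rik and H2-D1, were 2310061I04Rik, at 0.35 ± 0.16 on the log2 scale, and Cchcr1, a centrosomal protein gene, at 0.38 ± 0.19, both with overlap (edgeR adjusted p = 0.922 and 0.932). These were 0.11 and 0.38 with scrambled replicates 2 and 3 left out. The lower side was led by Tnxb, Tap2, Tap1, Aif1 and Lst1, described above. H2-DMa, the alpha chain of the peptide exchange factor DM, had 9.14 ± 0.558 CPM in Cdk5i libraries, 10.3 ± 0.928 CPM in scrambled libraries and 8.94 ± 1.29 CPM in WT, with overlap in each comparison.

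For Cdk5i against WT, 0 of 77 members passed the adjusted edgeR test, against 0.0748% of all genes. DESeq2 gave an adjusted p to 46 members and called 0 of them (1.05% of its genes). Limma-voom and the fit with no filter on low counts (1.26% of all genes) also called 0 members. At an unadjusted p under 0.05 there were 6 members (7.79%), against 11% of all genes, a share below the background, with 3 higher (against 5.73%) and 3 lower (against 5.3%). Groups did not overlap for 10 members (13%, against 16.3% of all genes), 7 higher (against 8.03%) and 3 lower (against 8.22%). The log2 fold change was positive for 45 of 77 members (58.4%, against 48.8%). Higher with Cdk5i were Pbx2, a homeodomain cofactor, at 0.45 ± 0.18 on the log2 scale, Mdc1, a mediator of the DNA damage checkpoint, at 0.28 ± 0.12, and Ehmt2, the histone methyltransferase G9a, at 0.21 ± 0.09 (edgeR adjusted p = 0.391, 0.414 and 0.423). Mdc1 had 9.33, 9.18 and 8.75 CPM in the Cdk5i libraries and 7.40, 7.49 and 7.63 CPM in WT, a gap wider than the spread in each group. Vwa7 and Nelfe, a subunit of the negative elongation factor, followed at 1.13 ± 0.54 and 0.24 ± 0.12 (edgeR adjusted p = 0.479 and 0.503). Lower with Cdk5i, after Tap2 and Tap1, were Ppp1r10, a regulator of protein phosphatase 1 in the nucleus, at -0.22 ± 0.09, Tnxb at -0.28 ± 0.15 and Tubb5 at -0.22 ± 0.14 (edgeR adjusted p = 0.399, 0.532 and 0.591).

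For both P301S groups against WT, 0 of 77 members passed the adjusted edgeR test, against 0.081% of all genes. DESeq2 gave an adjusted p to 46 members and called 0 of them (1.42% of its genes). Limma-voom and the fit with no filter on low counts (1.37% of all genes) also called 0 members. At an unadjusted p under 0.05 there were 8 members (10.4%), against 12.2% of all genes, with 7 higher (against 6.1%) and 1 lower (against 6.11%). The 5 members whose 6 P301S libraries did not overlap the 3 WT libraries (6.49%, against 6.5% of all genes) were Nelfe, Mdc1, Bag6, Dhx16 and Vars, all higher in P301S, where 3.22% of all genes were higher and 3.28% lower without overlap. The log2 fold change was positive for 53 of 77 members (68.8%, against 50.3% of all genes), with a median of 0.12, against 0.001, and for 30 of the 35 tested members of class III. The lowest p was that of BC051142 at 0.44 ± 0.13 (edgeR adjusted p = 0.244), then Nelfe at 0.30 ± 0.11 and Mdc1 at 0.25 ± 0.10 (adjusted p = 0.303 and 0.350). Brd2 and Stk19 followed at 0.20 ± 0.09 and 0.26 ± 0.11 (edgeR adjusted p = 0.373 and 0.375). On the lower side were Ppp1r10 at -0.18 ± 0.08, Slc39a7 at -0.77 ± 0.37, H2-T23 at -0.58 ± 0.32, Trim39, a ubiquitin ligase, at -0.14 ± 0.08 and Tap2 at -0.30 ± 0.19 (edgeR adjusted p between 0.390 and 0.558).

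**Figure D4:**
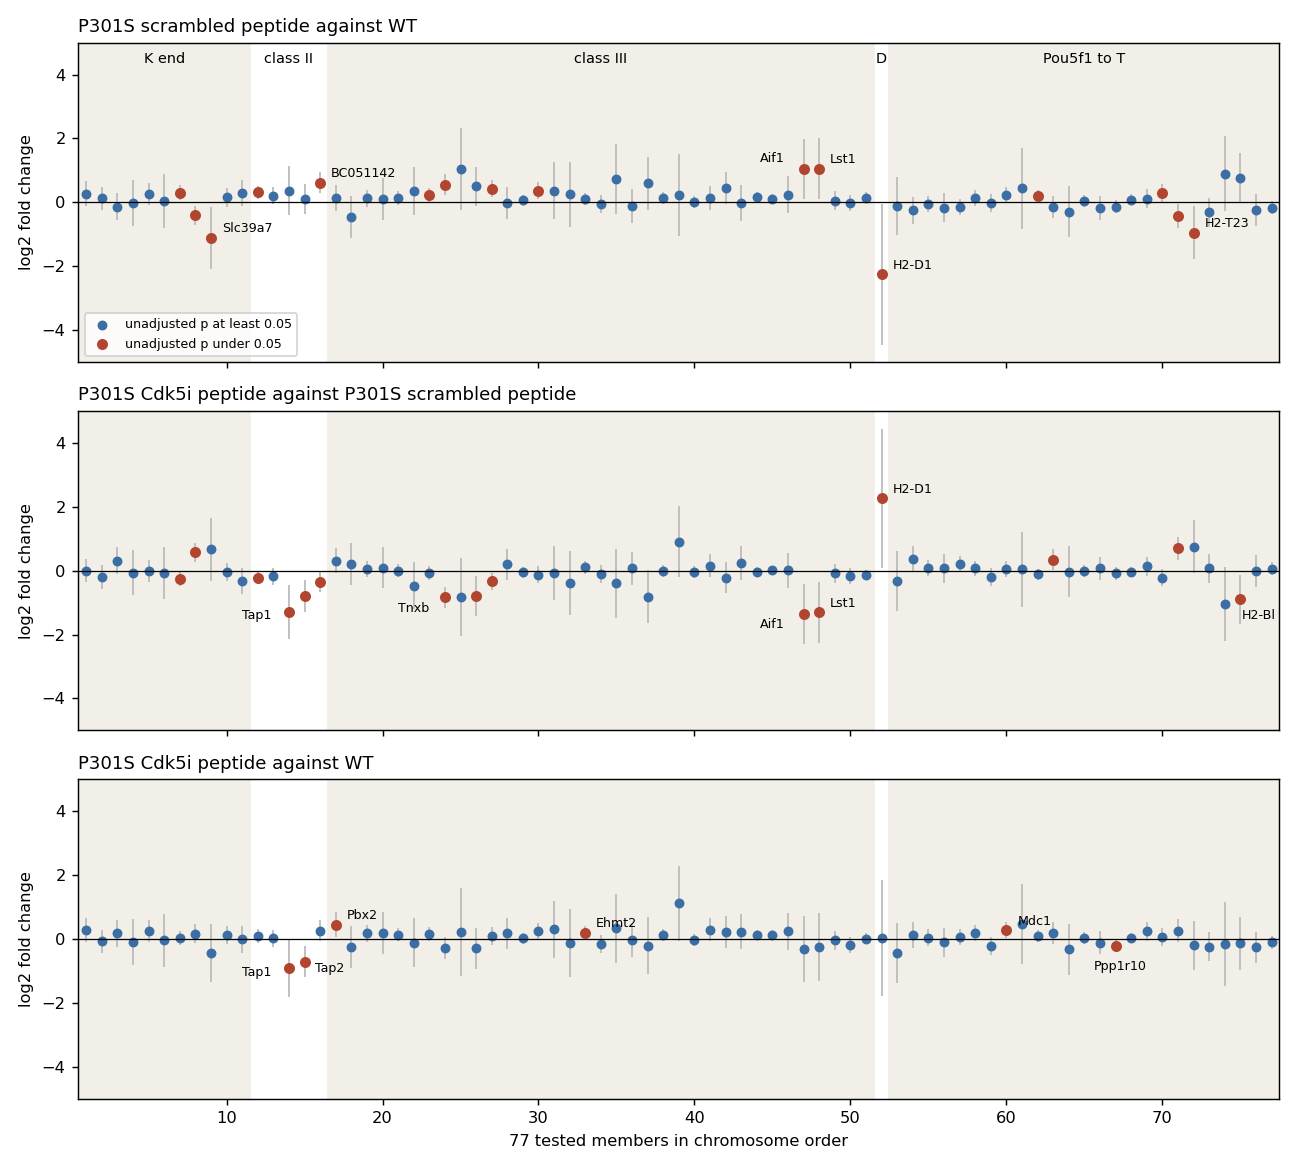
Log2 fold change of the 77 tested members in chromosome order for scrambled peptide against WT, Cdk5i against scrambled peptide and Cdk5i against WT. Grey lines are 95% intervals, red points have an unadjusted p under 0.05, shading marks the segments of the region, and 0 members passed the adjusted edgeR test. H2-D1 has the widest interval among the labelled genes. The members of the class II segment lie above 0 in the top panel and below 0 in the middle one. They are Brd2, H2-DMa, Tap1, Tap2 and BC051142, and only H2-DMa is a class II gene.

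Some further members of known roles, and those with uneven values, were as follows. Ehmt2 had 32.0, 33.1 and 34.4 CPM in the Cdk5i libraries, 33.4, 32.5 and 26.9 CPM in the scrambled libraries and 27.4, 31.2 and 27.7 CPM in WT. Bag6 had 33.7, 34.9 and 34.3 CPM in Cdk5i libraries, 32.4, 38.8 and 34.0 CPM in scrambled libraries and 30.8, 31.7 and 31.8 CPM in WT, its WT libraries all below the others. Rxrb, the retinoid X receptor beta, averaged 7.64 ± 0.564, 7.79 ± 1.21 and 7.00 ± 0.322 CPM in the Cdk5i, scrambled and WT libraries. Flot1, a lipid raft protein, averaged 16.4 ± 2.20, 15.6 ± 1.44 and 14.3 ± 1.15 CPM, and Ddr1, a collagen receptor kinase, 15.5 ± 1.35, 13.5 ± 1.26 and 14.8 ± 1.93 CPM, in the same order. The log2 fold changes of Rxrb, Flot1 and Ddr1 stayed between -0.14 and 0.20 in every comparison. Wider differences were seen in low members. Lsm2, a protein of splicing and RNA decay complexes, had 0.446, 0.457 and 0.535 CPM in the Cdk5i libraries, 0.848, 0.614 and 1.07 CPM in the scrambled libraries and 0.569, 0.281 and 0.817 CPM in WT. Its Cdk5i libraries lay below all scrambled ones, with a difference of -0.81 ± 0.39 on the log2 scale (edgeR adjusted p = 0.922). Gm6034 averaged 0.248 ± 0.215, 0.528 ± 0.0661 and 0.281 ± 0.128 CPM in the Cdk5i, scrambled and WT libraries, its scrambled libraries all above WT (log2 fold change 0.90 ± 0.55, edgeR adjusted p = 0.610). Notch4, a receptor of endothelial cells, had 5 to 14 counts per library and was not tested. 1110038B12Rik was uneven within groups, with 34.6, 42.9 and 66.9 CPM in Cdk5i libraries, 79.4, 82.7 and 27.6 CPM in scrambled libraries and 42.0, 34.4 and 38.5 CPM in WT. Gm24389, also untested, took 1.76 CPM in scrambled replicate 2 and 0 to 0.285 CPM in all the others, and all of its 40-base stretches occur in other genes.

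The 7 members that did not pass the filter were H2-K2, Gm19412, H2-Q2, Notch4, H2-T24, Gm24389 and Ier3. Not named so far, at the K end, were Daxx, Rgl2, Pfdn6, Wdr46, B3galt4 and Col11a2. In class III these were Rnf5, Agpat1, Ppt2, Fkbpl, Atf6b, Dxo, Skiv2l, Zbtb12, Gm10501, Abhd16a, Csnk2b, Gpank1, D17H6S53E and Gm17705. From Pou5f1 on they were Tcf19, Vars2, Gtf2h4, Ppp1r18, Gm16279, Atat1, Mrps18b, Abcf1, Gnl1 and Rpp21. None of them passed the adjusted edgeR test in any comparison. Their reads overlap other gene models in places, since 15 of the 84 members overlap a gene on the same strand and 3 do so over most of their length, Slc39a7, Ppt2 and C2. Over all members a median of 0.374% of the 40-base stretches of a transcript occurred in other genes, and 11 members exceeded 20%.

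Genes of the same pathways outside the region were also without calls. Of 11 tested genes of class I assembly, 7 of class II regulation, 17 of interferon signalling and 9 of complement, 0 passed the adjusted edgeR test in any comparison. Nor did Cd247, a signalling chain, and Klra2, the 2 tested genes of a list of class I receptors and their partners. Pirb, a receptor on that list, had 0 counts in every library. Of all 16046 genes 0.0125% to 0.081% passed the adjusted test, so a count of 0 among so few genes is near that share. Nlrc5, the transactivator of class I genes, averaged 0.399 ± 0.0849, 0.554 ± 0.251 and 0.326 ± 0.0797 CPM in the Cdk5i, scrambled and WT libraries. Ciita, its class II counterpart, had 6, 4 and 1 counts with Cdk5i, 9, 8 and 10 with scrambled peptide and 4, 4 and 2 in WT, with the scrambled libraries above all others, and was not tested. Irf1, an interferon-regulated factor, averaged 0.617 ± 0.294, 0.736 ± 0.132 and 0.942 ± 0.378 CPM for Cdk5i, scrambled peptide and WT. For both P301S groups against WT, 2 of the 11 assembly genes and 12 of the 17 interferon genes had positive log2 fold changes, with medians of -0.11 and 0.06, against 0.001 over all genes. Of the 9 complement genes 1 was positive (median -0.16), and 3 had an edgeR unadjusted p under 0.05, against 12.2% of all genes. For scrambled peptide against WT 2 of these 9 were positive (median -0.21), and 4 had such a p, against 10.1%. The 2 positive ones were C1ra (0.18) and C1s1 (0.05), which encode proteases of the complement cascade. The 7 negative ones included the complement inhibitors Cd46, Cd55, Cd59a and Cr1l, and also Csmd1 and Csmd2. The list thus mixes components and inhibitors. The 3 complement members of the region, all components, were positive in both comparisons.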

How the data were processed

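Raw read counts per gene were used as the authors deposited them, 1 table per library. Per the file headers, read pairs were counted over whole genes, introns included, on the reverse strand with featureCounts and the Ensembl GRCm38 annotation of release 102. The submitters' processing notes list DESeq2 1.36.0, the STAR aligner 2.7.9a and the Subread package 2.0.0 with no roles. Per the labels, RNA came from nuclei through a kit for fixed tissue, and libraries were made with a stranded total RNA kit of low input and read as 40-base pairs. No molecular identifiers are named, so floors cover counting error only, while the intervals of log2 fold changes include the spread between libraries.

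Counts were scaled by TMM, and genes were kept by the group-wise count filter of edgeR 4.0.16 in R 4.3.3. All 9 libraries entered 1 quasi-likelihood fit with a mean for each of the 3 groups (6 residual degrees of freedom), and p-values were adjusted by Benjamini-Hochberg over the 16046 genes tested in each of the 4 comparisons. An adjusted p of 0.05 was the threshold. CPM values use TMM-scaled totals, and standard errors (SE) are those of the log2 fold change. A gene's groups did not overlap where all libraries of one lay above all of the other. The code was tested on simulated counts. Shared 40-base stretches were counted over GENCODE transcripts. Alternatives were DESeq2 1.42.0, limma-voom (limma 3.58.1), other scaling and filters, fits on the compared groups alone, a replicate block and leaving out libraries.

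The members, gene lists and naming rule were chosen with earlier results of these data known. The rule named, for each comparison, the 5 members with the lowest p in each direction, the 10 with the highest CPM per kb, those next to the count limit, and a fixed list of known genes of the region and its pathways. Other members were named to account for all 84. Single values of some genes of the marker and pathway lists are not reported here.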

Additional observations from a re-analysis of the deposited data

How the results depend on the processing

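The main counts of all genes called were 13 for scrambled peptide against WT, 2 for Cdk5i against scrambled peptide, 12 for Cdk5i against WT and 13 for both P301S groups against WT, with 0 members in each. In the same order of comparisons, DESeq2 called 72, 26, 112 and 151 genes, and a fit with no filter on low counts called 318, 159, 408 and 445. Limma-voom called 21 genes for both P301S groups. A filter of a mean of 50 counts gave 5, 1 and 8 genes for scrambled peptide, Cdk5i and both P301S groups against WT, and a fit on the compared groups alone gave 2 for Cdk5i against WT. Members called numbered 2 with DESeq2 for Cdk5i against scrambled peptide, and 5 and 6 with no filter for scrambled peptide against WT and Cdk5i against scrambled peptide. The replicate block gave 2, 2 and 1 genes for scrambled peptide, Cdk5i and both P301S groups against WT and called 0 members. Same-numbered libraries of different groups deviated with correlations of -0.31 to 0.17, and differently numbered ones with -0.15 to 0.28. These values gave no sign of pairing by number, but with 3 libraries per group they cannot exclude it.

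Leaving out 1 library in turn gave 2 to 17, 2 to 18, 2 to 14 and 2 to 17 genes in the 4 comparisons, and 0 to 1, 0 to 1, 0 and 0 to 1 members, the 1 being H2-D1 without scrambled replicate 1. Leaving out scrambled replicates 2 and 3, an alternative chosen after seeing the data, gave 5, 4, 2 and 2 genes and 0 members. The causes of these shifts were not tested. Of 671 alternative values of 41 named log2 fold changes, 13 passed the threshold under an alternative, and 0 reversed. The other 658 kept their direction and, where the alternative gave an adjusted p, their side of the threshold. Members with few counts, such as Tap1, C2 and C4b, have wide intervals, and differences smaller than these intervals were not detectable at this depth.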
